A study of Mus musculus with 2 samples.

Results

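Heat shock proteins and their DnaJ partners form the protein-folding machinery of the cell, and 75 of the 26100 genes listed for both libraries of this study belong to them. They were chosen by symbol alone: the small heat shock, Hsp70, Hsp110, chaperonin and Hsp90 families, the DnaJ families A, B and C, and by name Cryab and the myosin chaperone Unc45b. The data were 2 single-cell RNA-seq libraries from mouse, prepared with the 10x Genomics 3′ kit, in which each unique molecular identifier (UMI) stands for 1 captured transcript. The first library held mouse embryonic fibroblasts (MEF) kept in fibroblast medium. The second held induced myogenic progenitor cells (iMPC), muscle progenitor-like cells made from such fibroblasts with the muscle transcription factor MyoD and a factor mix that the labels abbreviate F/R/C, and kept in medium with that mix. Both libraries carried the genotype Tg:Pax7-nGFP/C57BL6;DBA2, and the iMPC are described as a single stable clone. Each condition was 1 library, so there is no replicate error and no test between conditions. The intervals below are exact 95% intervals for counting error only, and amplification and capture can add to them. They treat the UMIs of a group as independent, so the spread between its cells is left out.

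Levels are the summed counts of a group scaled to 1000000 UMIs (CPM), on a linear scale. A 3′ library counts a transcript once whatever its length, so no division by length was made. The iMPC library was split by the UMIs of a few marker genes. The Pax7 class had at least 1 Pax7 UMI and no Myog UMI and held 2180 cells. The Myog class had at least 5 Myog UMIs with at most 1 of Ckm and held 1724 cells. The Ckm class had at least 5 Ckm UMIs and held 1037 cells, and the Dcn class had at least 5 UMIs of the fibroblast proteoglycan gene Dcn and held 553. MEF held 6043 cells, and 4001 iMPC cells met no class. In all, 146 cells met more than 1 class, 110 of them Dcn and Pax7. Median depth was 18929 UMIs per cell in MEF, 18729.5 in the Pax7 class, 23857.5 in the Myog class, 42148 in the Ckm class and 18064 in the Dcn class. The class limits are raw UMI counts, so a deeper cell reaches them more easily. Kept cells of the libraries shared 16 barcodes.

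The class labels were set against fixed marker lists. The myocyte list holds Ckm, the fibroblast list Dcn and the satellite cell list Pax7, so part of those sums follows from the class rule. In its own class Ckm was at 409 CPM, Dcn at 1162 and Pax7 at 116. The 9 myocyte markers summed to 48885 CPM in the Ckm class, 14032 in the Myog class, 4399 in the Dcn class, 934 in the Pax7 class and 96.0 in MEF. The 9 fibroblast markers summed to 6568 CPM in MEF, 5232 in the Dcn class, 1365 in the Pax7 class, 298 in the Myog class and 143 in the Ckm class. Satellite cell markers were highest in the Pax7 class, at 852 CPM against 327 in MEF, and smooth muscle markers in MEF, at 9883 CPM against at most 858 elsewhere. Immune and endothelial markers each summed to under 4 CPM in MEF and in the Dcn class. Epithelial markers summed to 14.6 CPM in MEF, 14.2 of it Krt18, and to under 1 CPM elsewhere, and of the glial markers S100b was at 11.4 CPM in the Dcn class and under 1 CPM elsewhere. The Dcn class thus held myocyte transcripts at 9.0% of the level of the Ckm class, and every Dcn-class level given below is to be set against that share.

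As background, Hsp70 proteins bind unfolded chains and hand them on, DnaJ proteins deliver clients to Hsp70 and start its ATP cycle, Hsp90 finishes the folding of kinases, receptors and myosin, and the Hsp60 chaperonin folds proteins inside mitochondria. Small heat shock proteins hold unfolding proteins without ATP, and several of them, Cryab among them, sit on desmin filaments and Z-discs of muscle. Heat shock factor 1 drives many of these genes through heat shock elements after stress, the unfolded protein response drives those of the endoplasmic reticulum (ER) through ER stress elements, and some small heat shock genes are also under muscle control.

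Promoter windows of 300 bases, 250 before to 50 after an annotated start, were available for 59 of the 75 genes (RefSeq, GRCm38.p6). Cryab, Hspb2, Hsp90aa1, Hsp90ab1 and Hspa8 were among the genes without a window, so no element was searched for in them. Letters were searched on both strands. A short heat shock element (TTCNNGAA, or GAANNTTC, which is another phase of the same repeat) was in a window of 16 of the 59 genes. By windows, it was in 18 of the 76 of these genes and in 15.06% of all 32851. The longer form of that repeat, in which 3 TTC and GAA units alternate with 2 bases between them and which contains the short one, was in 0.6027% of all windows and in those of Dnajb6, Hspd1, Hspe1 and Hsph1. The ER stress element (CCAAT and CCACG with 9 bases between them) was in 0.1187% of all windows and in those of Hspa5, Hsp90b1 and Dnajc3. The MEF2 consensus was in 0.5571% of all windows and, among these genes, in that of Hspb3, where it overlaps a TATAAA. The TATAAA was in 13.62% of all windows, with 4 of these genes. The muscle E box CAGCTG was in 16.3% of all windows and in those of 12 of these genes. E2F letters (TTTCCCGC or TTTGGCGC) were in 1.565% of all windows and in those of 4 genes, Dnajb9, Dnajc19, Dnajc5g and Dnajc9. Each match is a string of letters and not a measured binding site. Below are the 4 upstream stretches that stand for the patterns described in the results, with the matched letters in capitals: a small heat shock gene with no UMI in fibroblasts (Hspb3), one with a high level in fibroblasts (Hspb1), the start shared by the mitochondrial chaperonin pair (Hspd1 and Hspe1), and the main ER Hsp70 (Hspa5).
Hspb3, chr13:113663677-113663926, minus strand, short heat shock element and MEF2 match: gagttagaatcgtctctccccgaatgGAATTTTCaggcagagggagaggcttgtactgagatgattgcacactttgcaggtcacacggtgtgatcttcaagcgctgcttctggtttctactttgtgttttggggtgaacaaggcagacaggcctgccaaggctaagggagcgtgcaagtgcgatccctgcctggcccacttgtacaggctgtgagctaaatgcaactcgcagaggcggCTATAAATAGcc
Hspb1, chr5:135887669-135887918, plus strand, heat shock elements: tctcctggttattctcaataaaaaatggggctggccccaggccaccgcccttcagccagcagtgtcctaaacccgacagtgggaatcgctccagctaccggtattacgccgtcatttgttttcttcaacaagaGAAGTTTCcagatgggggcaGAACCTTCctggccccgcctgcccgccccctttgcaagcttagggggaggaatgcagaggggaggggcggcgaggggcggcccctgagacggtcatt
Hspd1 and Hspe1, chr1:55087933-55088147, plus strand, heat shock elements: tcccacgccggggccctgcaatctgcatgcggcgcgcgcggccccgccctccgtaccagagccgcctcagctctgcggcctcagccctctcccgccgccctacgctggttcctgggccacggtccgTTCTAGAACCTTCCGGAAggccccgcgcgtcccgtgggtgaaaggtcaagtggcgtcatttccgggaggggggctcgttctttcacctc
Hspa5, chr2:34771840-34772089, plus strand, ER stress element: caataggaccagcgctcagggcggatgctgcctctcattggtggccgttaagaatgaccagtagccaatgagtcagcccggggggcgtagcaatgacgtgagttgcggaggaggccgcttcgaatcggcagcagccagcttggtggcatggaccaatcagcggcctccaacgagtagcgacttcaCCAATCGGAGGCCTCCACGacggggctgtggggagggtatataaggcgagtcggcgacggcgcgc

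Together the 75 genes took 9108 CPM in MEF, 9472 in the Dcn class, 11660 in the Pax7 class, 14025 in the Myog class and 13982 in the Ckm class. Most of that sum came from a few abundant genes: the top 5 held between 56.4% (MEF) and 66.4% (Pax7 class) of it. Hsp90ab1 alone held 19.4% in MEF, 35.9% in the Pax7 class, 31.8% in the Myog class, 24.2% in the Ckm class and 32.0% in the Dcn class. A mean of at least 10 CPM over the 5 groups was reached by 57 of the 75, as by 7708 of all genes. The counts that follow are over these 57. That mean includes the Ckm class, so a gene high in the Ckm class alone can reach it. Of the 18 below that limit, Dnajb8 and Dnajc5g had no UMI in any group, and no group level of the 18 was above 15.7 CPM. Among the 57, 21 differed by less than 2-fold between their highest and their lowest group, and 8 differed by at least 10-fold or were at 0 in a group, as did 32.9% and 14.4% of all genes past the limit. The highest group was the Ckm class for 20 of them, the Myog class for 15, MEF for 14, the Dcn class for 6 and the Pax7 class for 2. For all genes past the limit these shares were 16.7%, 12.6%, 33.8%, 17.3% and 19.5%.

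The small heat shock proteins were the family that differed most between these groups. Their summed level was 192 CPM in the Pax7 class, 1414 in the Myog class and 3714 in the Ckm class. The members past the level limit were Cryab, Hspb1, Hspb2, Hspb3, Hspb7 and Hspb8. All 6 were at least 2-fold higher in the Myog class than in the Pax7 class, with a median log2 ratio of 3.06. Of all genes 6.54% were so, with a median of -0.14. All 6 were also at least 2-fold higher in the Ckm than in the Pax7 class, with a median of 4.77. Of all genes 10.4% were so, with a median of -0.46. Except for Hspb2, which was 1.95-fold higher (log2 0.96), the 6 were also above 2-fold between the Myog and the Ckm class, where 4.72% of all genes were. Hspb7 passes the level limit only through its Ckm-class level, so its place in the Ckm-class counts follows in part from the limit. Hspb6, below the level limit and so not among the 6, was lower in both classes than in the Pax7 class.

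Cryab, alpha B-crystallin, which binds desmin and Z-disc proteins, is at chr9:50751325-50756636 on the plus strand. Its level was 178 CPM (175.6 to 180.4) in MEF, 124 (118 to 130) in the Dcn class, 40.1 (38.2 to 42.0) in the Pax7 class, 625 (618 to 633) in the Myog class and 1703 (1691 to 1714) in the Ckm class. The Pax7 class was lowest, 4.45-fold below MEF, and the Ckm class was 42.5-fold above the Pax7 class. Barcodes of the iMPC library with 1 to 100 UMIs, too few for a cell, held Cryab at 652 CPM. That was above its level in every iMPC class but the Ckm class, and the part of free RNA in these levels was not tested. With each cell thinned to 5000 UMIs, 98.7% of Ckm-class cells held a Cryab UMI (97.9 to 99.3), against 60.3% of the Myog class, 44.0% of MEF, 16.8% of the Pax7 class and 16.5% of the Dcn class. Unthinned these shares were 100%, 85.3%, 70.4%, 48.0% and 40.3%. In the Dcn class the top 5% of cells held 64.0% of the thinned Cryab UMIs, against 16.9% in the Ckm class, so a few cells carried most of that class's level.

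Hspb1 (Hsp27, a binder of actin and of damaged filamin; chr5:135887919-135889563, plus strand) had the next highest level of the family. It was at 342 CPM in MEF, 121 in the Dcn class, 92.6 in the Pax7 class, 430 in the Myog class and 1109 in the Ckm class. Cryab and Hspb1 therefore shared one order, with fibroblasts above the Pax7 class and the Ckm class on top. Hspb8, the partner of the cochaperone Bag3 in chaperone-assisted autophagy, had another: 10.7 CPM in MEF, 26.6 in the Pax7 class, 56.5 in the Dcn class, 104 in the Myog class and 280 in the Ckm class.

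Hspb2, Hspb3 and Hspb7, small heat shock proteins named for muscle and heart, were nearly absent from fibroblasts. Hspb2 had 0.813 CPM in MEF (96 UMIs), 18.4 in the Pax7 class, 34.5 in the Dcn class, 183 in the Myog class and 358 in the Ckm class. Hspb3 had no UMI in the 118069653 UMIs of MEF, 2.50 CPM in the Pax7 class, 16.2 in the Dcn class, 47.4 in the Myog class and 159 in the Ckm class. The iMPC barcodes with 1 to 100 UMIs held Hspb3 at 51.6 CPM, Hspb1 at 573, Hspb2 at 155, Hspb8 at 67.6 and Hspb7 at 27.1. Each of these was above the Pax7-class and Dcn-class levels of its gene. For Hspb1, Hspb3 and Hspb7 it was also above the Myog-class level. The part of free RNA in those levels was not tested. Hspb7 had 0.119 CPM in MEF (14 UMIs), 2.68 in the Pax7 class, 9.78 in the Dcn class, 18.6 in the Myog class and 103 in the Ckm class. Of the 3, Hspb7 had the largest ratio between the Ckm and the Myog class, 5.51-fold. Cryab and Hspb2 lie head to head, and their annotated spans overlap by 1030 bases with the 3′ ends 5558 bases apart. MEF held Cryab at 178 CPM with Hspb2 under 1 CPM, so the pair did not move together there.

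**Figure D1:**
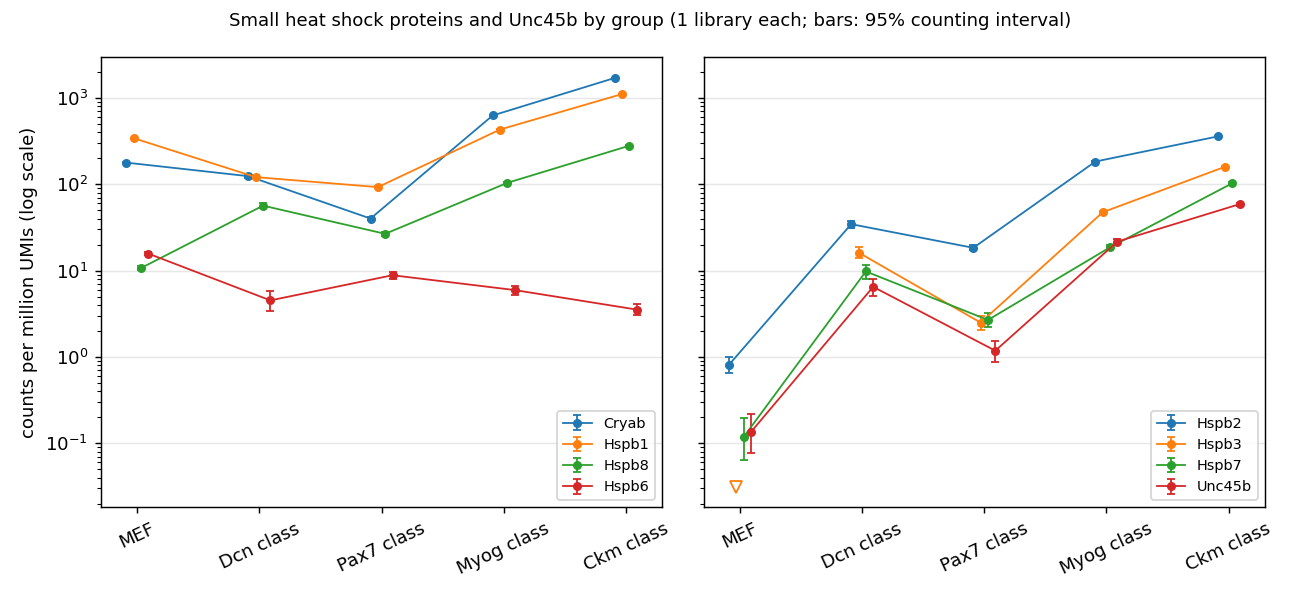
Level in CPM (log scale) of 7 small heat shock genes and Unc45b in the 5 groups, 1 library each, with bars for the 95% counting interval and lines that only join the groups. All but Hspb6 are highest in the Ckm class; the open triangle marks Hspb3 in MEF, with no UMI, at the upper limit of its interval.

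Hspb6 (Hsp20), which is abundant in smooth muscle and heart, ran the other way at a low level. It was at 15.7 CPM in MEF, 8.84 in the Pax7 class, 5.95 in the Myog class, 4.52 in the Dcn class and 3.54 in the Ckm class, and it did not reach the level limit. MEF, where it was highest, was also the group with the highest smooth muscle markers, and their part in this was not tested. Hspb9, known from testis, stayed at or below 0.25 CPM in every group.

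Among the Hsp90 genes, the constitutive Hsp90ab1 was the most abundant of the 75 in every group. It was at 1762 CPM in MEF, 3032 in the Dcn class, 4189 in the Pax7 class, 4459 in the Myog class and 3383 in the Ckm class. The stress-inducible Hsp90aa1 was at 564 CPM in MEF, 429 in the Dcn class, 711 in the Pax7 class, 849 in the Myog class and 557 in the Ckm class. Every iMPC class was above MEF for Hsp90ab1, the Pax7 class 2.38-fold, while Hsp90aa1 stayed within 2-fold of MEF in each. Unc45b, which works with Hsp90 on the myosin motor domain, is at chr11:82910550-82943403 on the plus strand. It had 0.136 CPM in MEF (16 UMIs), 1.18 in the Pax7 class (52 UMIs), 6.49 in the Dcn class, 21.7 in the Myog class and 58.8 in the Ckm class. The Ckm class was 49.8-fold above the Pax7 class, whose level was below the 24.7 CPM of barcodes with 1 to 100 UMIs.

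The constitutive cytosolic Hsp70, Hspa8, was at 1585 CPM in MEF, 1305 in the Pax7 class, 1514 in the Myog class, 1283 in the Ckm class and 884 in the Dcn class. None of the 8 Hsp70 and Hsp110 genes past the level limit was 2-fold higher or lower in the Myog than in the Pax7 class. Of all genes 6.54% were higher and 11.9% lower. The median log2 ratio of the 8 was 0.22. In the Ckm class 2 of the 8, Hspa1a and Hspa1b, were at least 2-fold lower than in the Pax7 class (log2 -1.28 and -1.14), where 29.4% of all genes were. Hspa4 and Hsph1, both Hsp110-type exchange factors for Hsp70, were at 127 and 56.0 CPM in MEF and at 125 and 49.8 in the Ckm class, and Hsph1 was lowest in the Dcn class, at 22.3. Hspa14, a ribosome-associated Hsp70, ranged from 31.2 CPM in the Ckm class to 52.8 in the Myog class. Hspa2 was lower in each iMPC class, at 8.62 to 12.1 CPM, than in MEF, at 18.5.

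The stress-inducible Hspa1a and Hspa1b were low throughout and highest in the Dcn class. Hspa1a was at 9.79 CPM in MEF, 38.4 in the Dcn class, 25.9 in the Pax7 class, 14.5 in the Myog class and 10.7 in the Ckm class. Hspa1b was at 10.04 CPM in MEF, 22.8 in the Dcn class, 11.6 in the Pax7 class, 7.79 in the Myog class and 5.24 in the Ckm class. They are near-identical copies, so how reads were divided between them is uncertain. Their 300-base promoter windows differ at 4 positions, and their 3′ ends, where these libraries read, were not compared. Immediate early genes, which respond to dissociation and other stress, were also highest in the Dcn class by their sum. Of the 17 past the level limit, 11 were at least 2-fold higher there than in MEF, where 13.3% of all genes were. Their summed level was 2805 CPM in the Dcn class, 1745 in the Pax7 class, 1202 in the Ckm class, 1103 in the Myog class and 1020 in MEF. The part of dissociation in the Hspa1a level was not tested. Dnajb1, the main DnaJ partner of Hspa1a, was at 40.9 CPM in the Dcn class and 42.2 in MEF, and Hsph1 was 2.51-fold lower in the Dcn class than in MEF, while Dnajb4 was at 75.2 CPM in the Dcn class and 37.2 in MEF. Across cells thinned to 5000 UMIs the correlation of Hspa1a with Hsph1 was between -0.04 and 0.03 in the 5 groups, and such sparse counts allow no reading of it.

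Of the 7 cytosolic DnaJ genes of classes A and B past the level limit, Dnajb6, Dnaja1, Dnajb1 and Dnaja2 differed by less than 2-fold between groups. Dnajb6 had the smallest spread of all 57, 1.22-fold, between 132 CPM in the Pax7 class and 161 in the Ckm class. Dnaja1, a partner of Hspa8, ranged from 203 CPM in the Ckm class to 270 in MEF, and Dnaja2 from 161 in the Pax7 class to 322 in the Ckm class. Dnaja4 stood apart at a lower level. It was at 12.1 CPM in MEF, 7.23 in the Dcn class, 2.32 in the Pax7 class, 8.92 in the Myog class and 26.6 in the Ckm class, the same order of MEF, Pax7 and Ckm groups as Cryab and Hspb1. Dnajb2, singled out after its values were seen, was at 8.34 CPM in the Pax7 class, 17.3 in the Myog class and 38.2 in the Ckm class. Dnajb5, below the level limit, was at 2.14 CPM in the Pax7 class and 12.6 in the Ckm class. Dnajb4 was highest in the Dcn class, at 75.2 CPM against 37.2 in MEF and 44.1 in the Pax7 class.

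Among the ER genes, Hspa5 (BiP), the ER Hsp70, stayed within 1.31-fold, at 473 CPM in MEF, 488 in the Pax7 class, 502 in the Myog class, 578 in the Ckm class and 618 in the Dcn class. Hsp90b1 (Grp94), which folds integrins and growth factors, was at 706 CPM in MEF, 1105 in the Dcn class, 877 in the Pax7 class, 655 in the Myog class and 546 in the Ckm class. Of the 13 ER genes past the level limit, 2 were at least 2-fold higher in the Ckm than in the Pax7 class, Dnajb11 and Dnajb9, both BiP partners, where 10.4% of all genes were. Dnajb11 was at 54.3 CPM in the Pax7 class, 110 in the Myog class and 170 in the Ckm class, and Dnajb9 at 19.2, 22.9 and 38.5. Dnajb9 lay at the 2-fold limit, and its log2 ratio came to 0.54 without cells that held a UMI of the dividing-cell genes Mki67 or Top2a. Dnajc10, Dnajc1, Dnajc25 and Hspa13 were at least 2-fold lower, where 29.4% of all genes were. Dnajc10 (ERdj5), a disulphide reductase, was at 62.9 CPM in the Pax7 class, 27.9 in the Myog class and 18.3 in the Ckm class, and at 84.7 in MEF and 77.2 in the Dcn class. Dnajc3 (p58IPK), an inhibitor of eIF2 alpha kinases, was at 48.7 CPM in the Pax7 class, 56.5 in the Myog class, 74.4 in the Ckm class and 86.3 in MEF.

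Among ER folding and stress genes outside the 75, 21 were past the level limit, and 5 were at least 2-fold higher (10.4% of all genes) and 4 lower (29.4%) in the Ckm than in the Pax7 class. Herpud1 and Sdf2l1, targets of the unfolded protein response, were at 34.5 and 32.0 CPM in the Pax7 class and 117 and 135 in the Ckm class. Other such targets were lower there: Calr was at 612 CPM in the Pax7 and 433 in the Ckm class, Pdia4 at 114 and 66.1, and Ddit3 at 52.1 and 37.2. The collagen chaperone Serpinh1 was at 674 and 261 CPM in the same classes. Within the Ckm class, the correlation of Hspa5 with Hsp90b1 across cells thinned to 5000 UMIs was 0.549, and it was 0.232 in the Pax7 class and 0.335 in MEF. Cells of 1 library share its depth and composition, so these are descriptions.

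The main mitochondrial chaperones were highest in the Myog class. Hspd1 (Hsp60), the chaperonin, was at 302 CPM in MEF, 232 in the Dcn class, 601 in the Pax7 class, 754 in the Myog class and 318 in the Ckm class. Its lid Hspe1 (Hsp10) was at 524 CPM in MEF, 392 in the Dcn class, 657 in the Pax7 class, 936 in the Myog class and 694 in the Ckm class. The pair starts from the shared promoter printed above, their annotated spans overlap by 112 bases, and the 3′ ends lie 13472 bases apart. Their ratios to the Myog class differed: the Ckm class was 2.37-fold lower for Hspd1 (log2 -1.25, -1.27 to -1.22) and 1.35-fold lower for Hspe1 (log2 -0.43, -0.45 to -0.41). Hspa9 (mortalin), the Hsp70 of the import motor, was at 237 CPM in MEF, 189 in the Dcn class, 289 in the Pax7 class, 333 in the Myog class and 257 in the Ckm class. Dnajc15, a DnaJ of the inner membrane, differed mainly between MEF and the muscle classes, at 47.9 CPM in MEF, 67.8 in the Dcn class and 128 to 140 in the Pax7, Myog and Ckm classes. Of 13 import and folding partners of mitochondria outside the 75, 0 were 2-fold different between the muscle classes. Of all genes, 4.72% to 29.4% were so in each direction of those comparisons. The median log2 ratio of the 13 was 0.34 for the Myog over the Pax7 class and -0.32 for the Ckm over the Myog class.

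The remaining DnaJC genes each have a client system of their own. Dnajc9, a histone chaperone of replicating cells, was the gene with the lowest ratio of the Ckm to the Pax7 class. It was at 41.3 CPM in MEF, 44.7 in the Dcn class, 111 in the Pax7 class, 69.6 in the Myog class and 13.7 in the Ckm class, 8.09-fold between the Pax7 and the Ckm class. Dnajc2 (zuotin, on ribosomes) was at 55.8, 36.1, 76.7, 92.7 and 58.0 CPM in the same order. Dnajc21, a factor of large ribosomal subunit assembly, was at 27.9 CPM in MEF and at 89.1 in the Dcn class, 90.4 in the Pax7 class, 123 in the Myog class and 137 in the Ckm class. It was thus at least 3.19-fold above MEF in each iMPC class, the fibroblast-marker class included. Dnajc8 (a splicing-associated DnaJ) and Hspb11 (an intraflagellar transport subunit despite its name) ranged from 96.7 to 147 and from 89.5 to 125 CPM. Dnajc5 and Dnajc7, singled out after their values were seen, were at 49.8 and 95.6 CPM in the Pax7 class and at 124 and 102 in the Ckm class.

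Set against the whole transcriptome, 10 of the 57 genes were at least 2-fold higher in the Myog than in the Pax7 class, where 6.54% of all genes were, and 1 (Dnajc10) was lower, where 11.9% of all genes were. In the Ckm over the Pax7 class 12 were higher (10.4% of all genes) and 7 lower (29.4%). In the Ckm over the Myog class 8 were higher (4.72%) and 2, Hspd1 and Dnajc9, lower (14.3%). Hspb7, Unc45b and Dnaja4, among the higher genes of all 3 comparisons, pass the level limit only through their Ckm-class level. Their place in the counts of the Ckm class therefore follows in part from the limit. Of the 10 genes higher in the Myog class, 6 were small heat shock proteins, and Unc45b, Dnaja4, Dnajb2 and Dnajb11 were the others. The median log2 ratio of the 57 was 0.21, 0.05 and -0.21 in these 3 comparisons, and that of all genes was -0.14, -0.46 and -0.26. Relative to the all-gene median, 2 in place of 7 genes were 2-fold lower in the Ckm than in the Pax7 class, Dnajc9 (log2 -2.56) and Dnajc10 (log2 -1.33), and Hspd1 between the Ckm and the Myog class came to -0.99 on the log2 scale. The share of all genes was not recomputed after this shift.

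**Figure D2:**
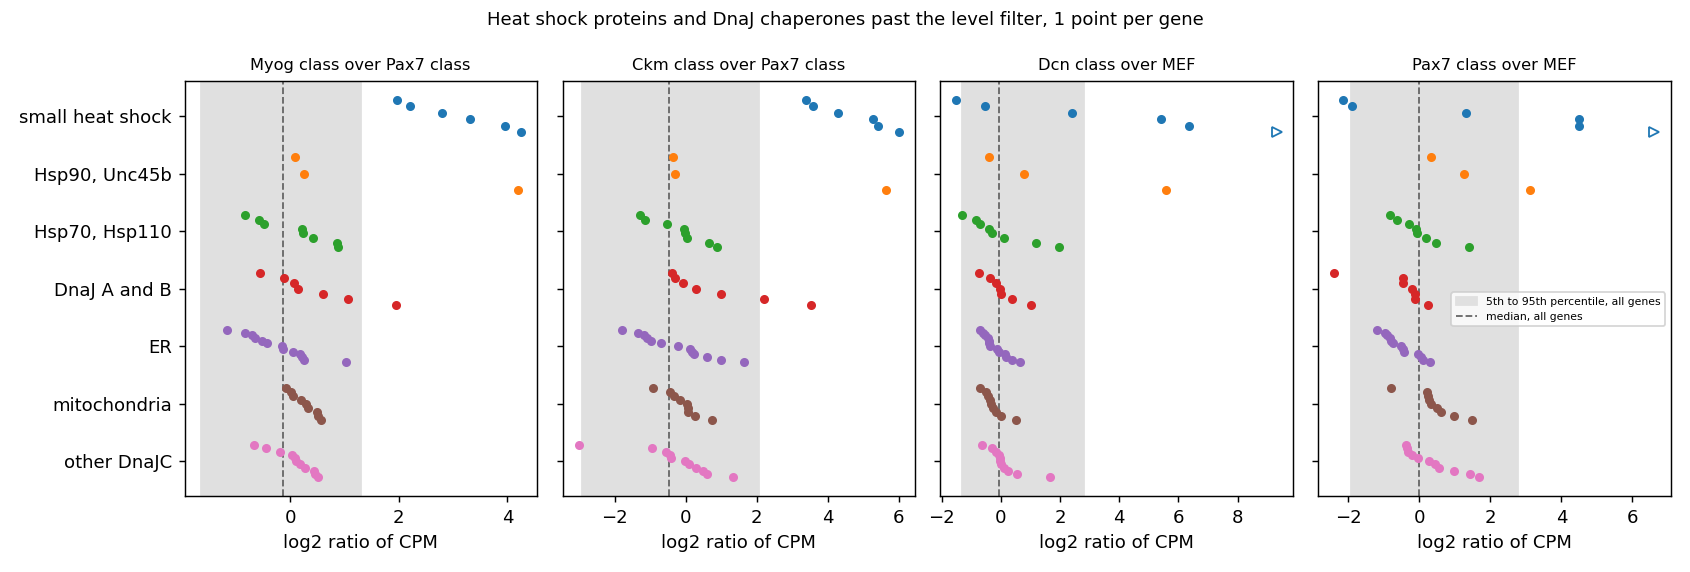
Log2 CPM ratio of each of the 57 genes past the level limit (1 point a gene, rows by role) in 4 comparisons; the grey band spans the 5th to the 95th percentile of all genes past the limit, the dashed line is their median, and the open triangles are lower bounds for Hspb3. The 6 small heat shock genes lie right of the band in both muscle comparisons, and the mitochondrial genes stay within it.

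Partners outside the 75 were counted in the same way. The 8 subunits of the cytosolic chaperonin TRiC and the 6 of prefoldin had no 2-fold difference in any of the 6 comparisons. Of all genes, 4.72% to 29.4% were past 2-fold in each direction of these comparisons. Of 25 cochaperones of Hsp70 and Hsp90, 1, Bag2, was 2-fold higher in the Myog than in the Pax7 class (6.54% of all genes). It was at 43.6 against 20.7 CPM. In the Ckm class Bag1 (387 against 153 CPM) and Bag2 (86.2 against 20.7) were 2-fold higher than in the Pax7 class (10.4% of all genes). Nudc (100.3 against 219) was lower there (29.4%), and 3 of the 25 were lower in the Dcn than in the Pax7 class (5.79%). Of 9 folding partners past the level limit that were listed because muscle uses them, 6 were 2-fold higher in the Myog class (6.54% of all genes) and 8 in the Ckm class (10.4%) than in the Pax7 class. Some of them were also present in MEF: Fhl1 was at 214 CPM there and at 207 in the Ckm class, Flnc at 82.3 and 294, and Bag3 at 46.7 and 31.5. Smyd1, the myosin methyltransferase that works with Unc45b and Hsp90, was at 5.02 CPM in the Pax7 class, 57.2 in the Myog class and 97.6 in the Ckm class. The stress factor Hsf1 was at 20.2, 22.0 and 10.5 CPM in these classes, and the related Hsf2 at 11.9, 22.4 and 21.2.

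Within the Myog class the small heat shock genes differed with the number of Myog UMIs. From cells with 5 to 9 Myog UMIs (259 cells) to those with 50 or more (430 cells), Cryab went from 213 to 842 CPM, Hspb2 from 54.7 to 269, Hspb8 from 44.6 to 142 and Unc45b from 4.61 to 30.1. Dnajc9 went from 118 to 50.9 CPM, and Hspd1 was at 757 and 848. Hspb7 peaked at 24.6 CPM in cells with 10 to 19 Myog UMIs and was at 16.5 in those with 50 or more. Both levels were below the 27.1 CPM of Hspb7 in iMPC barcodes with 1 to 100 UMIs. Median depth went from 20306 to 27260.5 UMIs over these bins. Within the Ckm class, by contrast, Cryab was flat across Ckm UMIs, at 1697 CPM in cells with 5 to 9 (379 cells) and 1647 in those with 50 or more (68 cells). Over the same bins Hspb7 went from 73.8 to 152 CPM, Hspb8 from 218 to 329, Hspd1 from 373 to 216 and Hspa5 from 658 to 334, while median depth went from 35269 to 55639.5 UMIs.

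**Figure D3:**
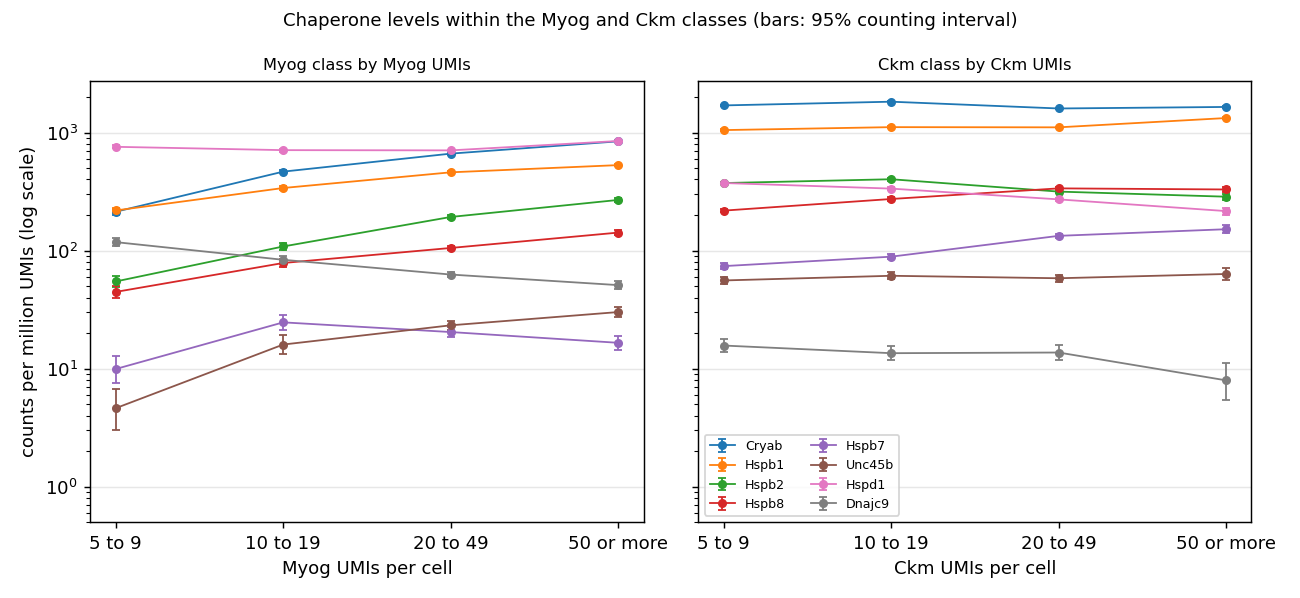
Level in CPM (log scale) of 8 genes in cells of the Myog class by Myog UMIs (left) and of the Ckm class by Ckm UMIs (right), with 95% counting intervals. Cryab climbs from 213 to 842 across the Myog bins and is level across the Ckm bins, where Hspb7 climbs from 73.8 to 152.

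Cells with a UMI of Mki67 or Top2a, genes of dividing cells, are called Mki67/Top2a-positive here, and were 63.4% of the Pax7 class, 51.2% of the Myog class, 23.6% of the Ckm class, 28.4% of the Dcn class and 15.6% of MEF. They were deeper in each group, in the Pax7 class with a median of 21419 against 14832 UMIs. Dnajc9 was higher in the positive cells of all 5 groups, by log2 ratios of 1.57 (Pax7 class), 2.30 (Myog class), 1.71 (Ckm class), 1.22 (Dcn class) and 1.77 (MEF). In the Pax7 class 4 of the 57 genes were at least 2-fold higher in positive cells, Dnajc9, Hspa14, Hspd1 and Hsph1, where 4.78% of all genes were. Hspd1 was at 706 CPM in positive and 341 in other Pax7-class cells, and at 403 and 279 in MEF. In the Myog class 9 of the 57 were at least 2-fold lower in positive cells, where 3.35% of all genes were. Cryab was at 344 CPM in positive Myog-class cells and 972 in the others, and at 40.2 and 39.7 in the Pax7 class. The other groups had no such gap for Cryab, with log2 ratios of -0.17 in the Ckm class and 0.06 in MEF. With Mki67/Top2a-positive cells left out everywhere, 3 in place of 8 genes were 2-fold higher in the Ckm than in the Myog class: Hspb7, Hspb3 and Dnaja4 at log2 1.71, 1.10 and 1.05. Cryab came to 0.86, Hspb1 to 0.91, Hspb8 to 0.94 and Unc45b to 0.90. The share of all genes was not recomputed without the positive cells.

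**Figure D4:**
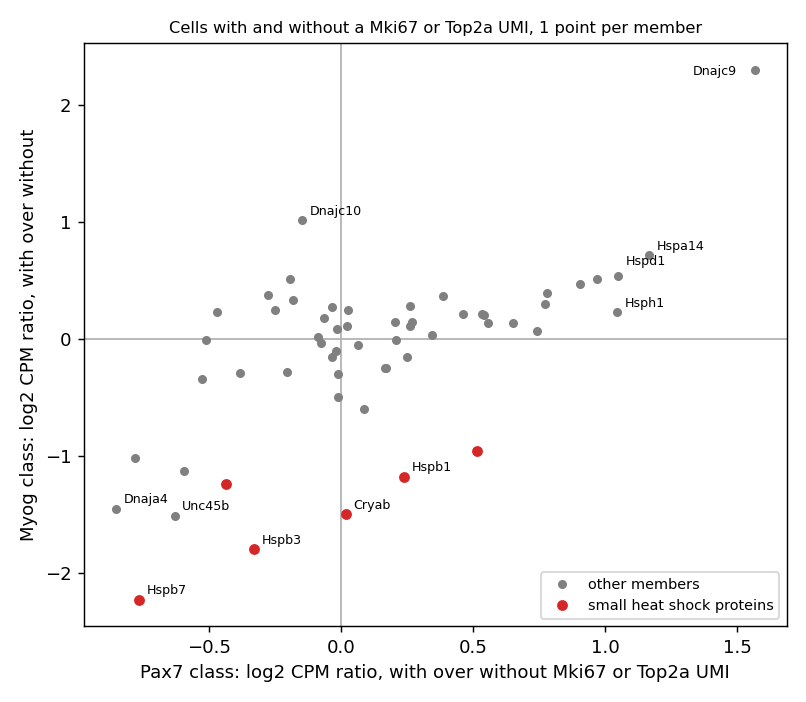
Log2 CPM ratio of cells with over cells without a Mki67 or Top2a UMI, in the Pax7 class (x axis) and the Myog class (y axis), 1 point a gene. Dnajc9 is high in both classes, while the small heat shock genes (red) lie below 0 in the Myog class and on both sides of 0 in the Pax7 class.

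The fibroblast-marker class of the iMPC culture was compared with the fibroblasts themselves. In the Dcn class over MEF, 9 of the 57 genes were at least 2-fold higher (13.3% of all genes) and 2 lower, Hspb1 and Hsph1 (9.63%). The higher ones were Hspb2, Hspb3, Hspb7, Hspb8, Unc45b, Hspa1a, Hspa1b, Dnajb4 and Dnajc21. As a share of the Ckm-class level, the 9 myocyte markers ranged from 8.09% to 11.3% in the Dcn class. Within that range were Hspb2 (9.65%), Hspb3 (10.2%), Hspb7 (9.52%), Hspb1 (10.9%) and Unc45b (11.0%). Cryab at 7.28% lay below it, and Hspb8 at 20.2% and Dnaja4 at 27.2% lay above it. The part of myocyte transcripts in these levels was not tested. In the Dcn over the Pax7 class 6 genes were higher (10.4% of all genes) and 3 lower (5.79%), Hspd1, Dnajc2 and Dnajc9. Without the cells that met more than 1 class, the Cryab log2 ratio of the Dcn over the Pax7 class went from 1.63 to 0.40, and that over MEF from -0.52 to -1.73. Hspb3 went from 2.70 to 1.68, Unc45b from 2.46 to 1.48, Hspb7 from 1.87 to 0.70 and Hspb8 from 1.08 to 0.88 in the Dcn over the Pax7 class. With doublets removed these ratios were 0.39 for Cryab, 1.42 for Hspb3, 0.90 for Unc45b, 1.04 for Hspb7 and 0.91 for Hspb8. Hspa1a over MEF did not shrink, at 1.97 with and 2.13 without those cells.

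**Figure D5:**
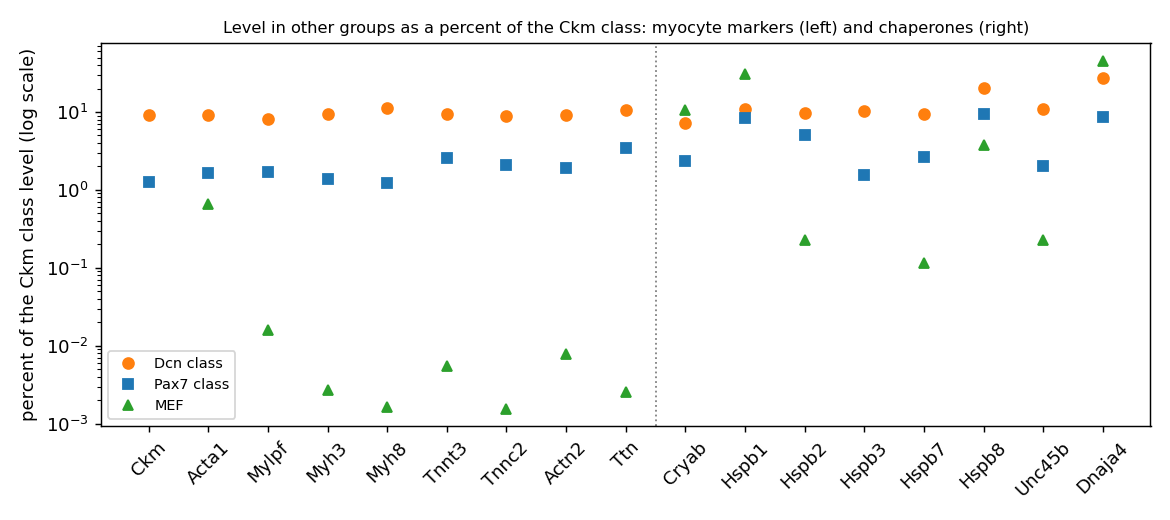
Level in the Dcn class, the Pax7 class and MEF as a percent of the Ckm-class level (log scale) for 9 myocyte markers (left of the dotted line) and 8 chaperone genes (right); genes with no UMI in MEF (Ckm and Hspb3) have no MEF point. Most chaperones sit at the Dcn-class level of the markers, near 9%, while Hspb8 and Dnaja4 lie above it. In MEF, Dnaja4 (45.5%), Hspb1 (30.8%), Cryab (10.5%) and Hspb8 (3.82%) lie above the markers, of which Acta1 is highest at 0.65%.

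The Pax7 class was also set against MEF, a comparison added after the data had been seen. There 10 of the 57 genes were at least 2-fold higher (15.9% of all genes) and 4 lower, Cryab, Hspb1, Dnaja4 and Dnajc1 (15.6%). The medians were -0.02 for the 57 and -0.01 for all genes. Hsp90ab1 at 2.38-fold, Dnajc21 at 3.24-fold, Dnajc15 at 2.82-fold and Dnajc9 at 2.69-fold led the abundant genes among the higher ones. A Mki67 or Top2a UMI was held by 63.4% of the Pax7 class against 15.6% of MEF, and the part of this in these ratios was not tested. Hspb2, Hspb3, Hspb7 and Unc45b were also higher, but at 5.13%, 1.57%, 2.61% and 2.01% of their Ckm-class level, beside 1.24% to 3.48% for the myocyte markers in the same cells. The same barcodes of 1 to 100 UMIs held Cryab at 652 CPM, above its level in the Pax7 class. With their profile subtracted at an assumed 10% of each class's UMIs, the Pax7 class kept no Cryab, Unc45b, Hspb7 or Hspb3 UMI. The log2 ratios over MEF of Hspb2 and Hspb8 went from 4.50 to 1.94 and from 1.32 to 1.05. With the profile of barcodes of 200 to 600 UMIs, Hspb2 came to -3.42 and Hspb8 to 0.14. Hspb3, with no UMI in MEF either, had no ratio left under either profile. The share of free RNA in these cells was not measured, so its part in these low levels was not tested.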

How the data were processed

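The authors deposited 1 matrix of whole-number counts for each library, UMIs by gene and barcode, and no normalization is recorded for it. Per the submitters' processing notes, Cell Ranger 4.0, Seurat 3.2.3 and the build GRCm38.p6 were used, with no role given for each. The iMPC matrix listed 6794880 barcodes, so cells were called at 8036 UMIs or more (10% of the 99th percentile of the top 10000 barcodes), which gave 9540. The MEF matrix listed 6113. Cells with over 20% mitochondrial UMIs (191 and 70) were left out, which left 9349 iMPC cells with 232728796 UMIs and 6043 MEF cells with 118069653.

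Counts were summed per group and divided by the group total (Python 3.11.15, numpy 2.4.6, scipy 1.17.1, pandas 2.3.3). Levels carry exact Poisson intervals and ratios exact conditional intervals. A group at 0 was set to 3 UMIs for a bound. Positions are from GENCODE M21 and promoters from RefSeq. The treatment label was used for MEF, since its protocol text repeats that of the iMPC.

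The genes, lists and comparisons were chosen with earlier results of these data known. Genes named with values were those of at least 100 CPM on average over the groups, a fixed list of family members, and the 5 with the largest ratio in each direction of each comparison. Doublets were kept in the values reported and removed with Scrublet (scanpy 1.11.5) as an alternative. On simulated counts the interval script was tested and recovered the changed genes. Those counts were drawn from the Poisson model that the intervals assume, so the spread between cells was not part of that test.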

Additional observations from a re-analysis of the deposited data

Results flagged for a closer look

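Barcodes outside the compared groups also held transcripts of these 75 genes. In iMPC barcodes of 1 to 100 UMIs their summed level was 9724 CPM, and in those of 200 to 600 UMIs it was 10160 CPM, with Cryab at 652 and 984 CPM and Hspb1 at 573 and 540 CPM. In barcodes left out for over 20% mitochondrial UMIs the sum was 8095 CPM in iMPC, with Cryab at 746 CPM, and 7087 CPM in MEF, with Cryab at 76.0 CPM. There is no control library for such barcodes.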

How the results depend on the processing

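No paired analysis was possible because each condition is 1 library, and for the same reason no replicate could be left out. The numbers of genes at least 2-fold higher or lower kept within 1.5 times of the reported number in 158 cases and left that range in 34. With a level limit of 50 CPM the higher genes were 5 (Myog over Pax7 class), 6 (Ckm over Pax7), 3 (Ckm over Myog), 2 (Dcn over Pax7), 3 (Dcn over MEF) and 6 (Pax7 over MEF), and the lower ones 2 (Ckm over Pax7), 1 (Dcn over MEF) and 2 (Pax7 over MEF). With no limit beyond 1 UMI the higher genes were 13 (Dcn over Pax7) and 15 (Dcn over MEF), and the lower ones 4 (Myog over Pax7), 11 (Ckm over Pax7), 5 (Dcn over Pax7), 5 (Dcn over MEF) and 9 (Pax7 over MEF). At 3-fold the higher genes were 2 (Ckm over Myog) and 5 (Pax7 over MEF), and the lower ones 0, 2, 1, 0 and 0 in the first 5 comparisons. These 3 settings change which genes are counted. Shifted by the median of all genes, the lower genes were 2 (Ckm over Pax7) and 1 (Ckm over Myog). Without Mki67/Top2a-positive cells the higher genes were 3 (Ckm over Myog) and the lower ones 6 (Myog over Pax7) and 1 (Dcn over Pax7). With cells thinned to 5000 UMIs 2 genes were lower (Myog over Pax7) and 3 higher (Dcn over Pax7), and when every cell's CPM got equal weight 3 were higher (Dcn over Pax7). In the Dcn over the Pax7 class 5 genes were lower without doublets and 6 without cells of more than 1 class. After subtraction of the free RNA profile of barcodes with 200 to 600 UMIs, 6 were higher (Pax7 over MEF). The share of all genes past 2-fold was not recomputed under these settings, and the cause of these shifts was not tested.

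Medians of the 57 genes near 0 changed sign. The Ckm over Pax7 median of 0.05 came to -0.0715 with a total free of mitochondrial and ribosomal protein genes and to -0.0102 with stricter classes. The Ckm over Myog median came to 0.0452 after the shift and to 0.0053 with no level limit, and the Dcn over Pax7 median to -0.14 at 50 CPM. The Pax7 over MEF median came to 0.17 with the reduced total, 0.0202 after thinning and 0.15 at 50 CPM. Of 973 single-gene ratios past 2-fold, counted over the alternatives, 925 stayed past it, 43 came under it and 5 changed sign, all in the Pax7 class over MEF after free RNA was subtracted: Unc45b (-0.84 with both profiles), Hspb7 (-0.65 with both) and Hspb2 (-3.42 with barcodes of 200 to 600 UMIs), where a Pax7 class at 0 was set to 3 UMIs. After subtraction of either profile Hspb3 was at 0 in both groups of that comparison, so those ratios are not among the 973. Scrublet marked 3.60% of iMPC cells. In MEF its own threshold marked 1 cell, so the 292 highest scores were removed there.

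Depth limits the low genes: 16 UMIs of Unc45b in MEF carry an interval of 0.0775 to 0.22 CPM.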
